A study of Mus musculus with 9 samples.

Results

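The genes described here encode receptors through which microglia read antibodies, inhibitory ligands and T cells. They are the Fc gamma receptors Fcgr1, Fcgr2b, Fcgr3 and Fcgr4, the signalling chain Fcer1g, the inhibitory receptors Pirb and Sirpa, the co-stimulatory ligands Cd80 and Cd86, and the scavenger receptor Msr1. They were taken by symbol from the deposited count table, where all 10 were found among 16398 genes, and all 10 were among the 11739 that passed the filter on low counts. They were chosen by role with their measured changes known, and Pirb and Cd80 were selected on their difference between siRNA 878 and siRNA 644, so their values with each siRNA are a description without a test. Only the mean of both siRNAs against control was tested for them. The difference they were selected on does not include that mean, but the mean was among the changes known at the choice.

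BV2 is an immortalized mouse microglial cell line, labelled wild type here, and it stands for microglia only as a single line in culture. The control group (NC, 3 libraries) was compared with cells in which Nus1 was knocked down with siRNA 644 (3 libraries) or siRNA 878 (3 libraries). Nus1 encodes a subunit of the enzyme that makes the lipid carrier for N-glycosylation. All groups were described alike as receiving siRNA with the RNAiMAX reagent for 24 h and then fresh medium for 24 h, so RNA was taken at 48 h, and the labels call the 3 replicates of each group biological.

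Fc gamma receptors bind the constant part of IgG. The activating receptors Fcgr1, Fcgr3 and Fcgr4 signal through the ITAM, a tyrosine motif in the shared gamma chain Fcer1g, which recruits the kinase Syk, whereas Fcgr2b carries an inhibitory motif (ITIM) that recruits the lipid phosphatase encoded by Inpp5d. Pirb, which binds MHC class I, and Sirpa, which binds the "don't eat me" signal Cd47, also carry ITIMs and recruit the tyrosine phosphatases encoded by Ptpn6 and Ptpn11. Cd80 and Cd86 on antigen-presenting cells bind Cd28 and Ctla4 on T cells, and Msr1 takes up modified lipoproteins and other polyanionic ligands.

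Promoter sequence is shown for Fcgr1 and Fcgr4, activating receptors of 1 family whose mRNAs moved in opposite directions, and for Pirb and Cd80, whose levels separated the siRNAs. Each run is RefSeq sequence of build GRCm38.p6, 5′ to 3′ on the gene's own strand. It spans 250 bases before to 50 bases after the start that the promoter set lists. That start need not be the gene's outer end: the deposited table begins Cd80 at 38457430, ahead of its window. The regions are chr3:96293920-96294219 on the minus strand for Fcgr1, chr1:171018676-171018975 on the plus strand for Fcgr4, chr7:3720333-3720632 on the minus strand for Pirb and chr16:38458683-38458982 on the plus strand for Cd80. Capitals mark matches to motifs of factors known from myeloid cells, and these motifs were chosen after the values were seen.
Fcgr1: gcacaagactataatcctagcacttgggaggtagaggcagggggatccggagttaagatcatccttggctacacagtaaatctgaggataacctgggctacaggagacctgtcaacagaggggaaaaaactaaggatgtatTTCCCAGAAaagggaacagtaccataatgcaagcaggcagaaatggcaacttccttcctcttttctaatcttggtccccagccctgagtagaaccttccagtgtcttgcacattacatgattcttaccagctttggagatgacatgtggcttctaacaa
Fcgr4: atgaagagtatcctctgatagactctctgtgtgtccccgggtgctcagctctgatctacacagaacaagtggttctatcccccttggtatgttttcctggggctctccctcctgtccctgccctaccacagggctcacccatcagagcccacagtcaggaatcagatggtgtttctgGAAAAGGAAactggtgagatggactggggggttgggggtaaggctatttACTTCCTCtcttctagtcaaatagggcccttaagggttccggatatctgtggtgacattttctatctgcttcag
Pirb: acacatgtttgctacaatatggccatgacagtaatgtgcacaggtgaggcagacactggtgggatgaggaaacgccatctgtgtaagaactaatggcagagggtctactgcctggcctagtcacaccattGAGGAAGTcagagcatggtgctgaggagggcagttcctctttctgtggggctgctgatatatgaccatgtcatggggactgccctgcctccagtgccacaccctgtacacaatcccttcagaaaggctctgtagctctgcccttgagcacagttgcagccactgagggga
Cd80: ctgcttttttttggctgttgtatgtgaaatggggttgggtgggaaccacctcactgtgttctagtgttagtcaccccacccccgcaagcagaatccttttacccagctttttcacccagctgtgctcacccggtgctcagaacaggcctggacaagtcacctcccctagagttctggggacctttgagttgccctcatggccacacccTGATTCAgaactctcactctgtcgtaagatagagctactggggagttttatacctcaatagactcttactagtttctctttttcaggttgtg
The Fcgr1 promoter held a GAS motif (TTCNNNGAA) 109 bases before the start, which 8.47% of the 27025 promoters in the RefSeq table also held. The Fcgr4 promoter held an interferon-response form (GAAANNGAA, 8.57% of promoters) 73 bases before the start and, on the opposite strand, a PU.1 form (GAGGAAGT, 3.28% of promoters) 24 bases before it. Pirb held the same PU.1 form 120 bases before its start, and Cd80 an AP-1 form (TGANTCA, 7.93% of promoters) 42 bases before its own. Both strands were searched. The windows of Fcgr2b, Fcgr3 (searched at more than 1 listed start) and Fcer1g held none of these letters. Those of Fcgr2b and Fcgr3 lay inside the genes' spans in the deposited table. The amino-acid response form TGATGNAA (4.06% of promoters) was in no window of the 7 genes with an entry. Sirpa, Cd86 and Msr1 had no entry. A match is a description of letters and not evidence of binding.

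Totals per library were 19362319 to 20224705 estimated counts. Nus1 was 51.4, 50.1 and 53.4 CPM (counts scaled to library size) in the control libraries, 3.93, 4.15 and 3.46 with siRNA 644, and 8.01, 3.73 and 8.35 with siRNA 878, so both knockdown groups lay far below control. Replicate 2 of siRNA 878 stood apart: its median absolute log2 difference from the other 2 libraries of its group was 0.398, against 0.0761 to 0.269 for the other 8 libraries. Its Nus1 was as low as with siRNA 644, and results for siRNA 878 are therefore also given without it. Of the 14 microglia and macrophage markers, 13 were tested and Sall1 was too low. With siRNA 644, Trem2 rose while Cx3cr1 and Aif1 fell. With siRNA 878, 1 marker rose and 4 fell, Cx3cr1, Aif1 and the integrin gene Itgam among the 4. Of the 13, 10 were not called with siRNA 644 and 8 were not called with siRNA 878. Among all genes, 16.6% were called higher and 15% lower with siRNA 644, and 16.0% and 15.5% with siRNA 878. The calls of Trem2 and Aif1 with siRNA 644 were lost without any of 4 and of 7 libraries (adjusted p of up to 0.0656 and 0.117), that of Itgam without control replicate 2 (-0.51, adjusted p = 0.0614) or 3 (-0.41, adjusted p = 0.0943), and with 1 library left out 1 to 8 and 3 to 6 of the markers were called. Cx3cr1 went from 24.8 ± 2.05 CPM (SD, n = 3) to 3.93 ± 0.343 and 3.10 ± 0.0618. Of 51 markers of other cell types, 38 were in the table and 6 reached 1 CPM. Their summed level was 53.3 to 56.6 CPM in control, 48.5 to 53.1 with siRNA 644 and 38.9 to 44.9 with siRNA 878, of which Itgax, which macrophages also express, was the largest part. Summed over each list, T and NK cell markers had at most 27 counts in a library, B cell markers 9, and mast cell and granulocyte markers 6. Endothelium and fibroblast markers had at most 22, neuron and glia markers 130, and dendritic cell markers, with Itgax among them, 996. The part of these shifts in the receptor results was not tested.

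In control cells the receptors spanned more than 3 orders of abundance. On the length-scaled FPKM of the deposited table, Fcer1g was the highest at 1289 ± 90.1 (SD, n = 3), above 99.4% of the genes tested. Fcgr3, the low-affinity activating receptor, followed at 231 ± 16.7 FPKM, then Sirpa at 107 ± 0.492 and the high-affinity receptor Fcgr1 at 55.9 ± 3.10. Cd86 (24.1 ± 1.16) and Fcgr2b (22.8 ± 1.36) overlapped in their libraries and so had no order. Fcgr4 was 14.2 ± 1.79 FPKM, Cd80 1.81 ± 0.280, and Pirb (0.823 ± 0.0764) and Msr1 (0.723 ± 0.0839) overlapped at the bottom. Pirb, Cd80 and Msr1 therefore rest on few counts: 37 to 184 per library for Pirb, 17 to 82 for Cd80 and 25 to 60 for Msr1.

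**Figure D1:**
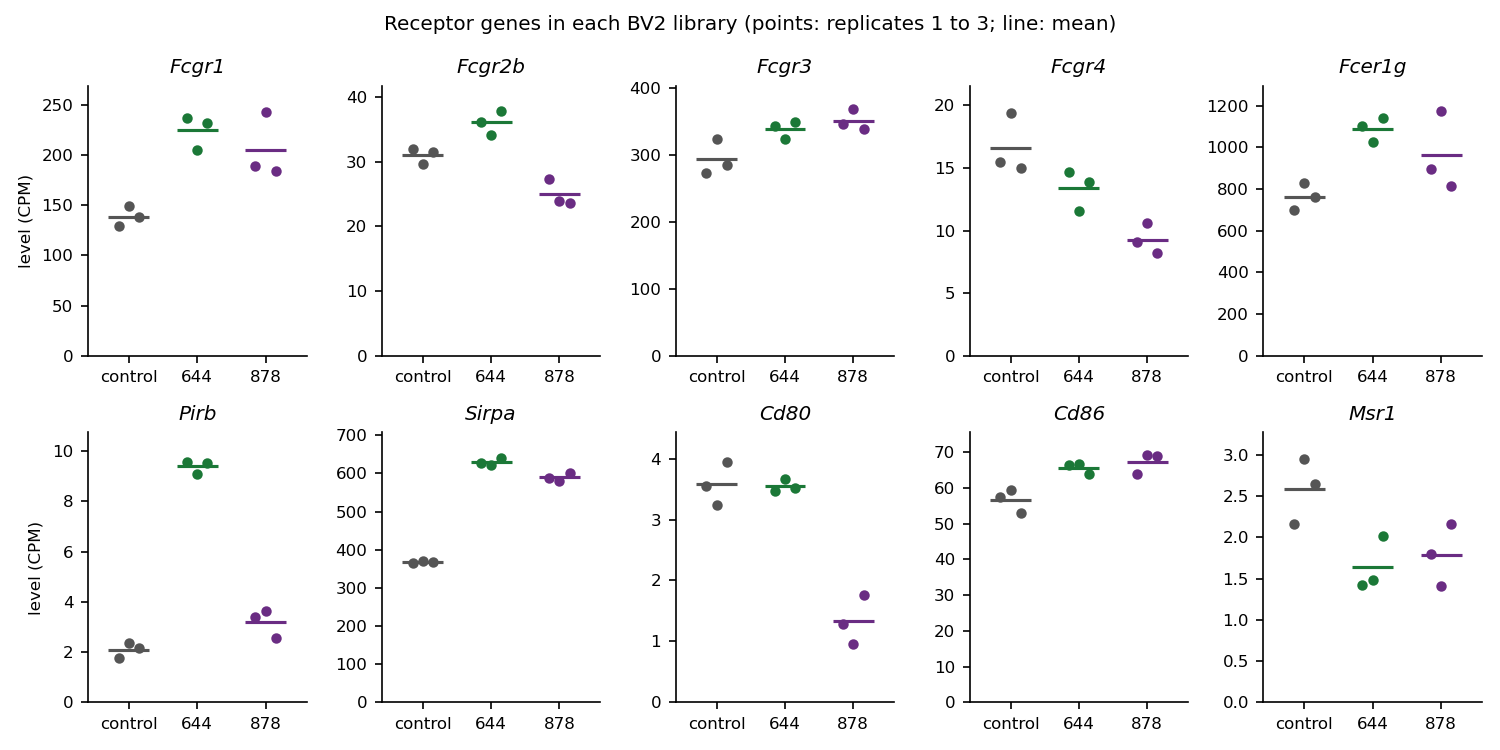
Level of each receptor gene (vertical axes, CPM on TMM-scaled library sizes, each from 0) in control, siRNA 644 and siRNA 878 libraries; points are the 3 replicates of a group and lines their means. Sirpa was 365 to 370 CPM in control and above 580 in all 6 knockdown libraries, while Pirb was high only with siRNA 644 and Cd80 low only with siRNA 878.

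The comparison of both siRNAs with control tests the mean of their changes, so a call need not mean that both siRNAs moved the gene: Cd80 was -0.01 with siRNA 644 and -1.41 with siRNA 878 on the log2 scale. Of the receptor genes, 6 rose (Fcgr1, Fcgr3, Fcer1g, Pirb, Sirpa and Cd86) and 3 fell (Fcgr4, Cd80 and Msr1), leaving Fcgr2b without a call. That is 9 of 10, where edgeR's quasi-likelihood test with Benjamini-Hochberg adjustment over all genes called 37.6% of genes, 19.0% higher and 18.5% lower. The knockdown libraries did not overlap control for 6 of the 10, 5 higher and 1 lower, beside 36.7%, 18.6% and 18.1% of all genes. The receptors were chosen with such results in view, so the share describes the choice as well as the cells. For siRNA 644 alone, 3 of the 8 genes open to a test were called higher and 1 lower (16.6% and 15% of all genes), and for siRNA 878 alone 4 higher and 2 lower (16.0% and 15.5%). The 3 libraries of siRNA 644 did not overlap control for all 8, 6 higher and 2 lower (55.7%, 28.0% and 27.7% of all genes), and those of siRNA 878 for 6, 4 higher and 2 lower (45.1%, 22.6% and 22.6%). The median log2 change of these 8 was 0.22, 0.25 and 0.23 for siRNA 644, siRNA 878 and their mean, beside -0.01, 0.00 and -0.00 over all genes tested.

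**Figure D2:**
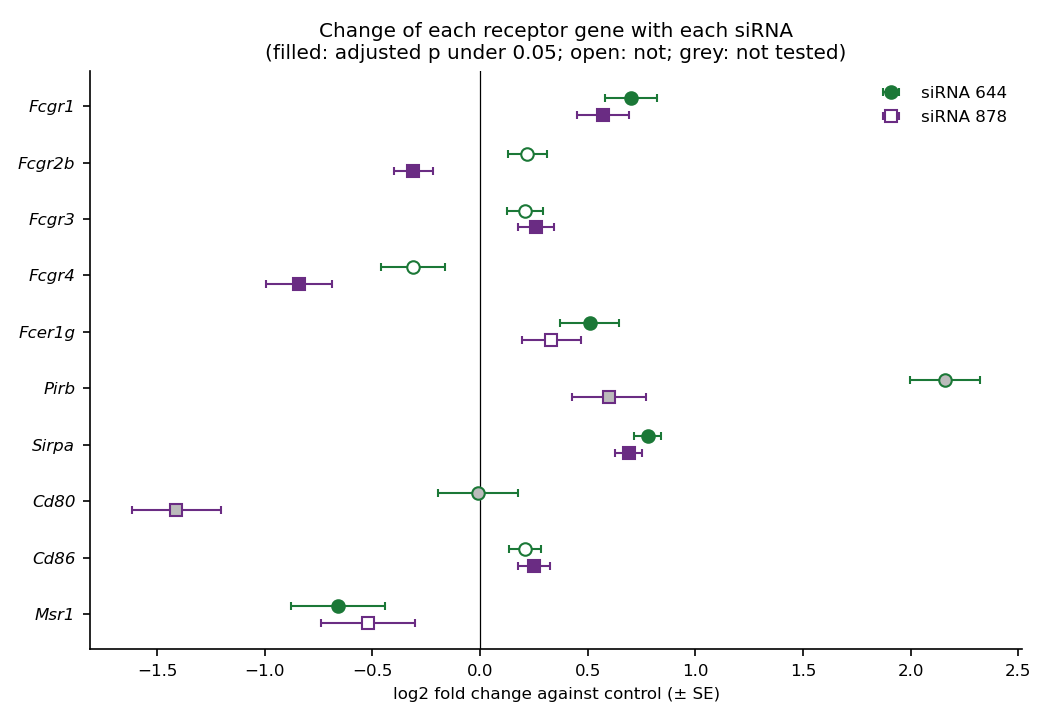
Log2 fold change against control (horizontal axis, ± SE) of each receptor gene with siRNA 644 (circles) and siRNA 878 (squares); filled symbols had an adjusted p under 0.05, open symbols did not, and grey symbols were not tested. Fcgr1 and Sirpa were called higher with both siRNAs, while Pirb, Cd80 and Fcgr2b lay apart between them.

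Among the activating Fc gamma receptors, the high-affinity receptor Fcgr1 rose with both siRNAs. Its level was 129, 149 and 138 CPM in control, 237, 205 and 232 with siRNA 644, and 189, 243 and 184 with siRNA 878. Every knockdown library lay above every control library. The log2 change was 0.70 (SE 0.120, adjusted p = 0.0025) with siRNA 644 and 0.57 (SE 0.120, adjusted p = 0.00689) with siRNA 878, by edgeR's quasi-likelihood test as throughout. Without replicate 2 of siRNA 878 the latter was 0.44 (adjusted p = 0.00208).

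Fcgr3, which takes most of the family's mRNA in BV2 cells, moved little. It was 273, 323 and 284 CPM in control, 343, 323 and 349 with siRNA 644, and 346, 368 and 338 with siRNA 878. The knockdown libraries lay at or above the highest control library, and the log2 change of the mean of both siRNAs was 0.23 (SE 0.0731, adjusted p = 0.0335). With siRNA 878 it was 0.26 (adjusted p = 0.0439) and with siRNA 644 0.21, which did not pass (adjusted p = 0.0908). These calls are fragile. The call of the mean was lost without control replicate 1 (0.18, adjusted p = 0.161) or 3 (0.21, adjusted p = 0.134), siRNA 644 replicate 1 (adjusted p = 0.0683) or 3 (adjusted p = 0.0779), or siRNA 878 replicate 1 (adjusted p = 0.0577). The call with siRNA 878 was lost when any library other than control replicate 2 or siRNA 878 replicate 2 was left out, with an adjusted p of up to 0.165. With siRNA 644 the change passed without control replicate 2 (0.28, adjusted p = 0.0342) or without siRNA 878 replicate 2 (0.20, adjusted p = 0.038).

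Fcgr4, the other activating receptor of the cluster on chromosome 1, went the other way. It was 15.5, 19.4 and 15 CPM in control, 14.7, 11.6 and 13.9 with siRNA 644, and 9.09, 10.6 and 8.20 with siRNA 878. Each siRNA 878 library lay below each siRNA 644 library, and these below control. It fell by 0.84 on the log2 scale with siRNA 878 (SE 0.152, adjusted p = 0.00321) and by 0.94 without replicate 2 (adjusted p = 0.000926). With siRNA 644 the log2 change was -0.31 (SE 0.149, adjusted p = 0.14).

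Fcer1g, the gamma chain that these receptors need for surface expression and signalling, was 699, 831 and 762 CPM in control, 1104, 1025 and 1138 with siRNA 644, and 898, 1174 and 814 with siRNA 878. The siRNA 644 libraries were all above control, whereas 1 siRNA 878 library lay within the control range and replicate 2 lay above all others. It rose by 0.51 (log2, SE 0.137, adjusted p = 0.021) with siRNA 644. With siRNA 878 the log2 change was 0.33 (SE 0.137, adjusted p = 0.0962), and 0.17 (adjusted p = 0.148) without replicate 2 but 0.44 (adjusted p = 0.0357) without replicate 3. The siRNA 644 call was lost without control replicate 1 (adjusted p = 0.0864) or 3 (adjusted p = 0.0689) and without siRNA 644 replicate 1 (adjusted p = 0.0636) or 3 (adjusted p = 0.0762). The mean of both siRNAs was 0.42 (adjusted p = 0.023), and lost its call without control replicate 1 (0.36, adjusted p = 0.108) or 3 (0.42, adjusted p = 0.0807) or siRNA 644 replicate 3 (0.41, adjusted p = 0.0531).

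Fcgr2b, the family's inhibitory receptor, was the 1 of the 8 genes open to the test that was called between the siRNAs. It was 32.0, 29.6 and 31.5 CPM in control, 36.2, 34.2 and 37.9 with siRNA 644, and 27.4, 23.9 and 23.6 with siRNA 878. The 3 groups did not overlap, with siRNA 644 above and siRNA 878 below control. With siRNA 878 Fcgr2b fell by 0.31 on the log2 scale (SE 0.0917, adjusted p = 0.0296). With siRNA 644 its log2 change was 0.22 (SE 0.0911, adjusted p = 0.0989). The difference of siRNA 878 from siRNA 644 was -0.53 (SE 0.0917, adjusted p = 0.0293), in a comparison that called 1.51% of all genes. That call did not hold when any 1 library other than siRNA 878 replicate 2 was left out, with differences of -0.49 to -0.60 and adjusted p of up to 0.163, and was -0.49 (adjusted p = 0.0118) without that replicate. The fall with siRNA 878 was -0.28 (adjusted p = 0.0367) without siRNA 878 replicate 2, and lost its call without control replicate 1 (-0.29, adjusted p = 0.105) or 3 (-0.30, adjusted p = 0.0934) or siRNA 878 replicate 3 (-0.28, adjusted p = 0.0746). With siRNA 644 the change passed without siRNA 878 replicate 2 (0.22, adjusted p = 0.0466).

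The balance of the family can be read as a ratio of FPKM. Summed Fcgr1, Fcgr3 and Fcgr4 stood at 12, 15.3 and 12.6 times Fcgr2b in control, 14.3, 13.7 and 13.6 times with siRNA 644, and 17.7, 22.5 and 19.7 times with siRNA 878. The siRNA 878 libraries were above all others, and siRNA 644 overlapped control. Within the 4 receptors' summed FPKM, Fcgr3 held 71.2% ± 0.757 (SD, n = 3) in control, 67.4% ± 0.802 with siRNA 644 and 71.7% ± 1.59 with siRNA 878. Fcgr1 went from 17.0% to 17.6% in control to 22.3% to 23.7% with siRNA 644 and 20.3% to 23.7% with siRNA 878. Fcgr4 went from 4.07% to 4.71% in control to 2.66% to 3.10% and 1.93% to 2.19%. These ratios follow from the tested levels and were given no test of their own.

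**Figure D3:**
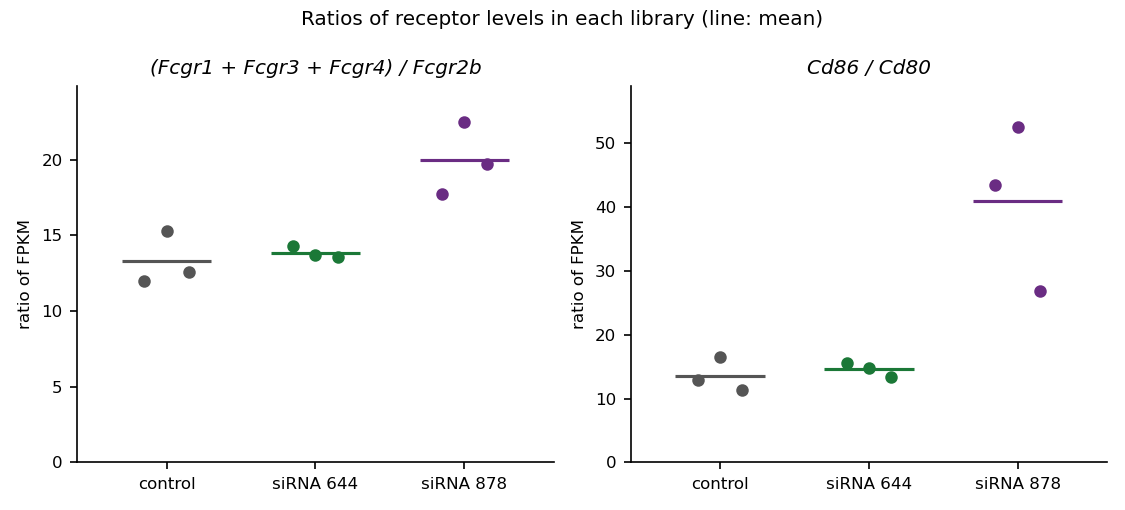
Ratio of summed activating Fc gamma receptor FPKM to Fcgr2b FPKM (left) and of Cd86 to Cd80 FPKM (right) in each library (points; lines are group means of 3). Both ratios were higher in each siRNA 878 library (17.7 to 22.5 and 26.8 to 52.5) than in any control or siRNA 644 library.

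Reads of this family can be shared. Of the 50-base windows of the longest GENCODE coding transcript, 12.8% of Fcgr3's were also found in Fcgr2b, and 4.75% of Fcgr2b's in Fcgr3. Counting any other gene, 12.5% of Fcgr2b's windows were shared, with 6.9% found in Cplx2. Fcgr1, Fcgr4 and Fcer1g shared none with any gene. How the authors' counting divided such reads is not stated in the labels or headers, which leaves the values of Fcgr2b and Fcgr3 uncertain to that extent. The table also places Fcgr2b on the plus strand and RefSeq on the minus strand, and the strand setting of the counting is not stated. With Fcgr2b, Fcgr3 and Fcgr4 summed into 1 gene, the change was 0.18 for siRNA 878 (adjusted p = 0.134), the sign of Fcgr3, which has most of the counts.

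Of the inhibitory receptors, Sirpa had the smallest spread and was higher in every knockdown library. It was 365, 370 and 367 CPM in control, 628, 621 and 641 with siRNA 644, and 589, 581 and 602 with siRNA 878. Its log2 change was 0.78 (SE 0.0623, adjusted p = 4.37e-05) with siRNA 644 and 0.69 (SE 0.0622, adjusted p = 8.63e-05) with siRNA 878, or 0.71 without replicate 2 (adjusted p = 1.66e-05). The siRNA 878 libraries lay just below those of siRNA 644, with a difference of -0.09 (95% interval -0.23 to 0.05, adjusted p = 0.563). Its activating relatives Sirpb1a, Sirpb1b and Sirpb1c had at most 21 counts in a library, and Sirpa shared no 50-base window with another gene.

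Pirb, at a low level in control, had the widest range of values of the 10. It was 1.78, 2.36 and 2.17 CPM in control (37 to 48 counts), 9.55, 9.09 and 9.51 with siRNA 644 (182 to 184 counts), and 3.39, 3.62 and 2.57 with siRNA 878 (51 to 66 counts). All siRNA 644 libraries lay far above the rest, and siRNA 878 lay just above control. As a description, these are 4.47 and 1.52 times the control mean, with log2 changes of 2.16 (SE 0.162) and 0.60 (SE 0.171), and 0.51 for siRNA 878 without replicate 2. The mean of both siRNAs rose by 1.38 (SE 0.149, adjusted p = 0.000157), and by 1.33 (adjusted p = 5.41e-05) without that replicate. Pirb lies in a cluster of near-identical activating genes: 37.3% of its 50-base windows, and 24.7% of its 100-base windows, occurred in another gene. Pira1, Pira2 and Lilra6 were counted at 0 to 12 per library, and adding them gave 2.13 and 0.62 with the siRNAs and 1.37 for their mean.

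Cd80, the co-stimulatory ligand that binds Ctla4 more tightly than Cd86 does, was 3.55, 3.24 and 3.95 CPM in control (66 to 82 counts), 3.46, 3.66 and 3.52 with siRNA 644 (66 to 74 counts), and 1.28, 0.96 and 1.76 with siRNA 878 (17 to 35 counts). The siRNA 644 libraries lay within the control range and the siRNA 878 libraries below it. As a description, the siRNA 878 mean was 37.3% of control, a log2 change of -1.41 (SE 0.205), or -1.22 without replicate 2, beside -0.01 (SE 0.185) with siRNA 644. The mean of both siRNAs was -0.71 (SE 0.164, adjusted p = 0.00894). It was -0.62 (adjusted p = 0.00505) without siRNA 878 replicate 2 and lost its call without control replicate 3 (-0.64, adjusted p = 0.05).

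Cd86 was 57.5, 59.3 and 52.9 CPM in control, 66.4, 66.7 and 63.8 with siRNA 644, and 63.9, 69.1 and 68.8 with siRNA 878. All 6 knockdown libraries were above control, by a small amount. The log2 change was 0.25 (SE 0.0751, adjusted p = 0.0327) with siRNA 878, 0.21 (SE 0.075, adjusted p = 0.0571) with siRNA 644, and 0.23 (SE 0.0655, adjusted p = 0.0218) for their mean. The mean lost its call without control replicate 1 (0.24, adjusted p = 0.0697) or 3 (0.19, adjusted p = 0.113). The siRNA 878 call was kept only without siRNA 878 replicate 1 or 2 (for the latter 0.24, adjusted p = 0.0333), with an adjusted p of up to 0.129 when another library was left out, and the siRNA 644 change passed without siRNA 878 replicate 2 (adjusted p = 0.0283). In FPKM, Cd86 stood at 11.3 to 16.5 times Cd80 in control, 13.3 to 15.6 times with siRNA 644, and 26.8 to 52.5 times with siRNA 878.

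The scavenger receptor Msr1 was near the bottom of the range. It was 2.16, 2.95 and 2.65 CPM in control, 1.42, 1.48 and 2.02 with siRNA 644, and 1.80, 1.41 and 2.16 with siRNA 878. The siRNA 644 libraries were below control, and the highest siRNA 878 library reached the lowest control library. Msr1 fell by 0.59 on the log2 scale for the mean of both siRNAs (SE 0.186, adjusted p = 0.0342), or by 0.52 without siRNA 878 replicate 2 (adjusted p = 0.0351). That call was lost without control replicate 2 (-0.48, adjusted p = 0.135) or 3 (-0.57, adjusted p = 0.108), siRNA 644 replicate 1 (adjusted p = 0.0733) or 2 (adjusted p = 0.0655), or siRNA 878 replicate 1 (adjusted p = 0.0624). With siRNA 644 the change was -0.66 (SE 0.220, adjusted p = 0.0496), at the threshold, and lost its call without any of control replicates 1, 2 and 3, siRNA 644 replicates 1 and 2 and siRNA 878 replicate 1, with an adjusted p of up to 0.158. It was called in 1 of the 9 other settings tried, where it ranged from -0.70 to -0.25. With siRNA 878 it was -0.52 (SE 0.218, adjusted p = 0.101), and -0.37 (adjusted p = 0.205) without replicate 2.

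Set against each other directly, the siRNAs differed by test at few receptors, though a missed threshold does not show that they act alike. Of the 8 genes open to the test, Fcgr2b alone was called, lower with siRNA 878 (1.19% of genes were called lower and 0.315% higher). The groups did not overlap for 3 of the 8, Fcgr2b, Fcgr4 and Sirpa, all lower with siRNA 878 and 0 higher, beside 18.6% of all genes, 10.6% lower and 7.98% higher. The difference of siRNA 878 from siRNA 644 was -0.13 for Fcgr1 (95% interval -0.40 to 0.14), 0.05 for Fcgr3 (-0.14 to 0.24), 0.04 for Cd86 (-0.13 to 0.21) and 0.13 for Msr1 (-0.39 to 0.65). For Fcgr4 it was -0.52 (-0.87 to -0.18, adjusted p = 0.138), and -0.62 (adjusted p = 0.0274) without siRNA 878 replicate 2. For Fcer1g it was -0.18 (-0.49 to 0.13, adjusted p = 0.633), and -0.34 (adjusted p = 0.0331) without that replicate. Pirb (-1.56, SE 0.157) and Cd80 (-1.40, SE 0.206) were chosen for this difference. Nus1 itself was not called between the siRNAs, with a log2 level 0.80 higher with siRNA 878 than with siRNA 644 (adjusted p = 0.18), and 1.10 higher (adjusted p = 0.00112) without replicate 2, whose own Nus1 level, 3.73 CPM, lay among those of siRNA 644. In that replicate Cd80 stayed low at 0.96 CPM and Pirb at 3.62 CPM, while Fcgr1 (243 CPM) and Fcer1g (1174 CPM) were above every siRNA 644 library. The part of knockdown depth in these differences was not tested.

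Genes downstream of the Fc receptors moved in both directions. Of 35 ITAM signalling genes, all tested, 9 rose and 7 fell with siRNA 644 and 7 rose and 11 fell with siRNA 878 (medians -0.07 and -0.04, beside -0.01 and 0.00 over all genes). Over all genes tested, 16.6% were called higher and 15% lower with siRNA 644, and 16.0% and 15.5% with siRNA 878. Leaving out 1 library gave 9 to 22 called with siRNA 644 and 9 to 19 with siRNA 878, most without siRNA 878 replicate 2, which was also the library whose absence gave the most calls in each list below with either siRNA, other than the other Fc receptors with siRNA 878. The adaptor Lat2 went from 114 ± 7.32 CPM (SD, n = 3) to 175 ± 6.97 and 171 ± 9.04, log2 changes of 0.61 and 0.58 (adjusted p = 0.000468 and 0.000623). Card9, the adaptor that passes Syk signals to NF-kB, rose by 0.81 and 0.66 (adjusted p = 0.00822 and 0.0207), the latter lost without control replicate 1 (0.63, adjusted p = 0.0749) or 3 (0.60, adjusted p = 0.0795). The lipid kinase gene Pik3cg fell by 0.63 and 0.77 (adjusted p = 0.0162 and 0.00618), and with siRNA 644 lost its call without control replicate 3 (-0.56, adjusted p = 0.0647) or siRNA 644 replicate 1 (-0.55, adjusted p = 0.0668) or 3 (-0.64, adjusted p = 0.0556). The Src-family kinase gene Fgr, at 5 to 27 counts, fell by 1.01 and 1.29 (adjusted p = 0.0403 and 0.0174), the first lost without any of 5 libraries with an adjusted p of up to 0.133, and the second without control replicate 1 or 3 (adjusted p = 0.0605 for each).

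Kinases at the head of the pathway were also looked up by role after their values were seen. Lyn, which phosphorylates both ITAMs and ITIMs, fell from 83.1 ± 5.07 CPM (SD, n = 3) to 58.5 ± 3.60 and 56.9 ± 8.30, log2 changes of -0.51 and -0.55 (adjusted p = 0.00946 and 0.00651). Syk was 80.3 ± 1.97 CPM in control and 70.9 ± 1.22 and 68.7 ± 2.27 with the siRNAs, log2 changes of -0.18 (adjusted p = 0.0647) and -0.23 (adjusted p = 0.0283). The latter call was lost without any of 5 libraries (adjusted p of up to 0.105), and the former passed without siRNA 878 replicate 2 (adjusted p = 0.0277). The T-cell-type adaptor Lat rose with siRNA 644 (1.18, adjusted p = 0.00972), was -0.36 with siRNA 878 (adjusted p = 0.376, or -0.75 and 0.0276 without replicate 2), and differed between them (-1.54, adjusted p = 0.0325), a difference that lost its call without any 1 library other than siRNA 878 replicate 2 (adjusted p of up to 0.156). The other ITAM adaptor, Tyrobp, was 308 ± 31.6 CPM in control and 367 ± 36.5 and 393 ± 92.9 with the siRNAs, and was not called (adjusted p = 0.26 and 0.13), but passed with siRNA 644 without siRNA 878 replicate 2 (0.25, adjusted p = 0.0486) and with siRNA 878 without replicate 3 (0.48, adjusted p = 0.0436).

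Of 11 genes listed as inhibitory effectors, all tested, 1 rose and 3 fell with each siRNA (medians -0.08 and -0.22). The list reaches beyond the phosphatases that the ITIMs of Fcgr2b, Pirb and Sirpa recruit, and Sla, the 1 that rose, is not among those. The 4 of 11 called stand beside 31.6% and 31.5% of all genes, with 2 to 6 and 1 to 5 called when 1 library was left out. Inpp5d, the phosphatase recruited by Fcgr2b, was 226, 223 and 226 CPM in control, 163, 161 and 157 with siRNA 644, and 148, 148 and 155 with siRNA 878. It fell by 0.49 and 0.58 (adjusted p = 0.00041 and 0.000168), with no overlap of the groups. Ptpn11 fell by 0.32 and 0.28 (adjusted p = 0.0224 and 0.0373), calls lost without any of 4 and of 8 libraries, with an adjusted p of up to 0.0848 and 0.124. Ptpn6 was 308 ± 22.8 CPM (SD, n = 3) in control and 234 ± 26.7 and 219 ± 45.3 with the siRNAs, and passed with siRNA 878 (-0.49, adjusted p = 0.032) but not with siRNA 644 (-0.40, adjusted p = 0.0688). The call with siRNA 878 was lost without any of 6 libraries (adjusted p of up to 0.1), and the change with siRNA 644 passed without siRNA 878 replicate 2 (adjusted p = 0.00457) or 3 (adjusted p = 0.0452). Sla, an adaptor that damps antigen-receptor signalling, rose by 1.16 and 0.72 (adjusted p = 0.00274 and 0.0251), the second lost without any of 5 libraries with an adjusted p of up to 0.0858.

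Of 19 genes tested from a list of other inhibitory receptors, 10 rose and 3 fell with siRNA 644. With siRNA 878, 7 rose and 5 fell (medians 0.44 and 0.28, beside -0.01 and 0.00 over all genes). The list also held Cd47, a ligand and not an inhibitory receptor, which was among those that rose with each siRNA. Over all genes 16.6% were called higher and 15% lower with siRNA 644 and 16.0% and 15.5% with siRNA 878. The list, when 1 library was left out, had 11 to 15 and 9 to 14 called. Ly9, a self-binding SLAM-family receptor, went from 73.1 ± 3.69 CPM to 131 ± 6.22 and 132 ± 6.75 (SD, n = 3), log2 changes of 0.84 and 0.85 (adjusted p = 8.73e-05 and 7.83e-05). Cd300a, which binds phosphatidylserine on dying cells, rose by 0.65 and 0.85 (adjusted p = 0.000259 and 6.32e-05). The C-type lectin gene Clec4a1, at 8 to 33 counts, rose by 1.24 and 1.77 (adjusted p = 0.0092 and 0.00121). Cd72, an ITIM receptor best known from B cells, fell by 1.14 and 1.06 (adjusted p = 0.00106 and 0.00141). Pilra, which binds sialylated ligands, was 6.81, 6.68 and 7.42 CPM in control, 13.0, 12.4 and 14.9 with siRNA 644, and 5.44, 6.33 and 4.38 with siRNA 878. It rose with siRNA 644 (0.94, adjusted p = 0.00151), was -0.37 with siRNA 878 (adjusted p = 0.0912), and differed between them by -1.32 (adjusted p = 0.00626). Without siRNA 878 replicate 2 it passed as lower with siRNA 878 (-0.50, adjusted p = 0.0202), and without replicate 1 the difference between the siRNAs lost its call (-1.33, adjusted p = 0.0503).

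Of 20 genes tested from a list of activating paired and related receptors, 7 rose and 4 fell with siRNA 644. With siRNA 878, 0 rose and 5 fell by edgeR's test, and 1 was called between the siRNAs (medians 0.17 and -0.15). These counts stand beside 16.6% and 15% of all genes with siRNA 644 and 16.0% and 15.5% with siRNA 878. The list also held receptors outside such pairs, such as the adhesion receptor Siglec1, which fell with each siRNA. With 1 library left out, 7 to 12 were called with siRNA 644, fewest without control replicate 1 or siRNA 644 replicate 1 or 3. Without siRNA 878 replicate 1 or 2, 6 of the 20 were called with siRNA 878. The lectin receptors Clec4d and Clec4e, which sense mycobacterial glycolipid and damaged cells through Fcer1g, fell by 0.57 and 0.99, and by 0.66 and 0.73 (adjusted p = 0.0033, 0.000193, 0.000539 and 0.000316). Without siRNA 878 replicate 2 the difference of siRNA 878 from siRNA 644 also passed for Clec4d (-0.46, adjusted p = 0.0207). Siglec1, a sialic-acid-binding adhesion receptor, fell by 0.40 and 0.64 (adjusted p = 0.00565 and 0.000487). Trem1, an amplifier of inflammatory signals, fell by 0.58 and 0.76 (adjusted p = 0.0303 and 0.00998), the first lost without any of 4 libraries with an adjusted p of up to 0.11. Treml4 rose by 1.78 with siRNA 644 (adjusted p = 0.00019), was 0.53 with siRNA 878 (adjusted p = 0.0698), and differed between them by -1.25 (adjusted p = 0.0175), which lost its call without any of the siRNA 644 replicates or siRNA 878 replicates 1 and 3 (adjusted p of up to 0.0883). Without siRNA 878 replicate 1 its rise with siRNA 878 passed (0.69, adjusted p = 0.0353).

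**Figure D4:**
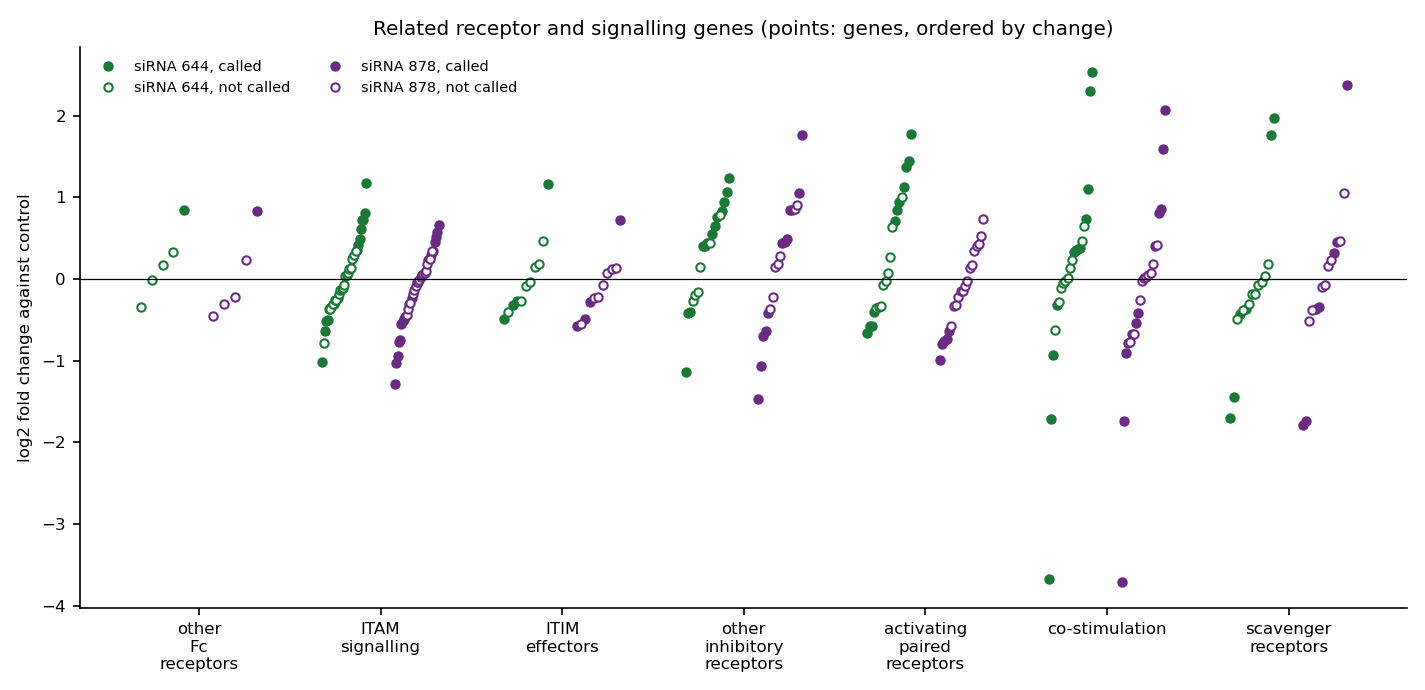
Log2 fold change against control (vertical axis) of each tested gene of 7 related lists with siRNA 644 (green) and siRNA 878 (purple), in order of change; filled points had an adjusted p under 0.05. Exceptions were the other Fc receptors, of which 1 of 5 was called, and the list labelled activating paired receptors, with 0 called higher with siRNA 878. Every other list held genes that moved in either direction.

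Beyond Cd80 and Cd86, 8 of 22 co-stimulation genes rose and 4 fell with siRNA 644, and 5 rose and 6 fell with siRNA 878 (medians 0.19 and -0.01), beside 16.6% and 15% of all genes with siRNA 644 and 16.0% and 15.5% with siRNA 878, with 6 to 15 and 7 to 14 called when 1 library was left out. Cd40, the receptor through which T cells license antigen-presenting cells, was 1.63, 2.80 and 2.50 CPM in control, 11.9, 11.3 and 11 with siRNA 644, and 9.81, 9.43 and 9.91 with siRNA 878. Its log2 change was 2.30 and 2.07 (adjusted p = 3.28e-05 and 6.09e-05). Tnfrsf9, the co-stimulatory receptor 4-1BB, went from 59.2 ± 5.49 CPM (SD, n = 3) to 4.65 ± 0.827 and 4.54 ± 2.34, log2 changes of -3.67 and -3.71 (adjusted p = 7.82e-05 and 7.5e-05). Cd83, a maturation marker of antigen-presenting cells, fell by 1.71 and 1.74 (adjusted p = 8.4e-06 and 7.21e-06). Tnfsf18, the ligand of GITR, rose by 2.53 and 1.59 (adjusted p = 4.64e-05 and 0.000759) from 9 to 14 counts per control library, and Cd276 (B7-H3) fell with siRNA 878 (-0.54, adjusted p = 0.00127) and was -0.05 with siRNA 644 (adjusted p = 0.663). Both differed between the siRNAs (-0.94, adjusted p = 0.0412, and -0.49, adjusted p = 0.0278), and these calls were lost without any of 8 libraries for Tnfsf18 and any of 7 for Cd276, with an adjusted p of up to 0.18 and 0.152.

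The partners of the receptors were looked up by role. Cd47, the ligand of Sirpa, was 32.1, 33.2 and 34.8 CPM in control, 45.4, 42.3 and 45.0 with siRNA 644, and 44.3, 48.0 and 48.7 with siRNA 878. It rose by 0.41 and 0.49 (adjusted p = 0.00449 and 0.00155). Cd28, a T-cell receptor for Cd80 and Cd86, was counted at 2446 to 4537 per library in this microglial line and was not called (log2 changes 0.23 and 0.42, adjusted p = 0.316 and 0.0851). Without siRNA 878 replicate 2, where Cd28 was 138 CPM beside 201 and 228 in the other siRNA 878 libraries, it was called with siRNA 878 (0.61, adjusted p = 0.000778) and with siRNA 644 (0.23, adjusted p = 0.0492). Ctla4 had 9 to 23 counts per library.

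Of the scavenger receptors other than Msr1, 2 of 15 rose and 4 fell with siRNA 644, and 3 rose and 4 fell with siRNA 878 (medians -0.18 and -0.07), beside 16.6% and 15% of all genes with siRNA 644 and 16.0% and 15.5% with siRNA 878, with 5 to 9 and 5 to 10 called when 1 library was left out. Scara5, a class A receptor that takes up ferritin, rose by 1.97 and 2.38 (adjusted p = 0.000784 and 0.000262) from 12 to 17 counts per control library. Scara3 fell by 1.70 and 1.74 (adjusted p = 0.000875 and 0.000764), and Axl, a receptor for phosphatidylserine-bridging ligands, fell from 11.9 ± 1.57 CPM (SD, n = 3) to 4.37 ± 0.797 and 3.46 ± 0.354 (log2 changes -1.44 and -1.78, adjusted p = 0.000291 and 0.000105). Of the other Fc receptors, 5 were tested and 1 was called: Fcrls, a microglial Fc receptor-like gene, rose by 0.85 and 0.83 (adjusted p = 0.00844 and 0.00966) from 27 to 29 counts to 39 to 55.

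Likeness was measured as the root mean square difference between mean-centred log2 CPM of 2 genes over the 9 libraries, as a description. Nearest to Fcgr1 were Grn, which encodes the lysosomal protein progranulin (0.0297, where Fcgr1's own root mean square was 0.328), and the sterol hydroxylase gene Cyp27a1 (0.0479). Nearest to Fcer1g were Rusc1 (0.0257) and Slc27a1 (0.0376), to Fcgr3 Dedd (0.024), and to Fcgr2b Chst11 (0.0755) and Flna (0.0762). Nearest to Fcgr4 was Myadml2 (0.0744), to Sirpa Slc38a6 (0.0511) and Mcoln2 (0.0533), to Cd86 Arf1 (0.0373) and Sppl3 (0.0446), and to Msr1 Cenpl (0.145) and Zfp354a (0.151). Pirb's nearest genes, Plb1 (0.240) and Smpd3 (0.241), and Cd80's, Rab39 (0.213) and Shtn1 (0.264), were farther away.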

How the data were processed

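RNA of cultured BV2 cells was sequenced in 9 libraries, grouped by title into control, siRNA 644 and siRNA 878 with 3 biological replicates each, from 2 µg of total RNA with an mRNA kit per the labels' protocols. Bowtie2 2.4.5, DESeq2 1.34.0 and mm39 are listed in the submitters' processing notes, while neither labels nor headers state a counting tool, annotation or strand setting. Per the file headers, the authors made estimated counts per gene and FPKM values. Of the nonzero estimated counts deposited, 37.4% were not whole within 1e-09. A further 9 TPM columns, 9 columns of averages and 9 of the authors' comparisons were not used.

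Estimated counts were rounded and filtered with edgeR 4.0.16's filterByExpr (minimum 10, minimum total 15), which kept 11739 genes and at least 99.96% of counts in each library. The quasi-likelihood test in R 4.3.3 used TMM factors (0.898 to 1.04) and group as the only term over all 9 libraries, with Benjamini-Hochberg adjustment over all genes tested and calls under 0.05. The SE is the size of a log2 change divided by the square root of F, and intervals are 95%. The biological coefficient of variation was 14.9%. The comparisons share their control libraries. In these bulk libraries fewer expressing cells and less RNA per cell cannot be told apart. The procedure was tested on simulated data. There, 25.4% of 1.5-fold changes were called for siRNA 644 against control and 29.9% for siRNA 878. For 2-fold changes the shares were 71.6% and 77.6%. Between the siRNAs, 29.9% of 1.5-fold and 76.1% of 2-fold changes were called, so small changes were often missed there. Only 67 genes were changed by each of these folds and 66 by 4-fold, of 11656 tested for siRNA 644. The real comparisons with control called 31.6% and 31.5% of genes. With few changed genes the adjustment sets a stricter cutoff, so the simulated shares do not carry over to those comparisons. No simulated library was made to stand apart as siRNA 878 replicate 2 did. Alternatives were DESeq2 1.42.0, other scalings and filters, limma 3.58.1 on log2(FPKM + 1) and log2(FPKM + 0.1), and a block for the replicate number. Others were a fit without the third group, each library left out, and related genes of the Fcgr, Pirb and Sirpa families summed.

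The members, gene lists and motifs were chosen with earlier results of these data known. Named were all 10 members, Nus1, up to 4 genes per list called in 1 direction with both siRNAs, up to 3 called between the siRNAs, and the 2 nearest genes by likeness among genes of average log2 CPM of at least 1. Trem2, Lyn, Syk, Ptpn6, Tyrobp, Cd47, Cd28, Ctla4 and Itgax were named by role after their values were seen. Some genes that met these rules are left out of the text.

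Positions of the table matched RefSeq GRCm38.p6 for 7 of the 10 members, not for Fcgr2b (which the table also puts on the opposite strand), Cd80 and Cd86, and mm39 is the build listed, which leaves the table's own build open. Promoters come from RefSeq GRCm38.p6. No member overlapped another gene of the table.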

Additional observations from a re-analysis of the deposited data

Results flagged for a closer look

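Among the 8 receptor genes open to the test, Fcgr2b was the 1 called between the siRNAs: the difference of siRNA 878 from siRNA 644 was -0.53 on the log2 scale (SE 0.0917, adjusted p = 0.0293 by edgeR's quasi-likelihood test), with siRNA 644 libraries at 34.2 to 37.9 CPM and siRNA 878 libraries at 23.6 to 27.4. The call was lost in 8 of 9 fits with 1 library left out (adjusted p of up to 0.163), with the replicate number as a block (adjusted p = 0.118) and with only the groups compared (adjusted p = 0.158). The table places the gene on the other strand than RefSeq does.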

How the results depend on the processing

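Over the receptor genes with a test, 514 of 619 values under an alternative stayed on their side of the threshold, 86 lost a call, 16 gained one and 3 called values turned direction. Another 6 values that were not called changed sign. The 3 came from summing Fcgr2b, Fcgr3 and Fcgr4 into 1 gene, which gave 0.18 with siRNA 878, where Fcgr2b was -0.31 and Fcgr4 -0.84, and 0.18 for the mean of both siRNAs, where Fcgr4 was -0.58. Fcgr3 has most of the counts in that sum, so the sum takes the sign of Fcgr3 and is no check of the direction of Fcgr2b or Fcgr4. Fcgr1 and Sirpa were called with each siRNA under each alternative run, as was Fcgr4 with siRNA 878 other than in that sum. The calls of Fcgr3 and Cd86 with siRNA 878 held in 5 of 18 alternatives each, and that of Msr1 with siRNA 644 in 4 of 18, where it shrank to -0.25 on log2(FPKM + 1). On log2(FPKM + 0.1) the call of Cd80 for the mean of both siRNAs was lost (adjusted p = 0.0548), and on log2(FPKM + 1) the untested changes of Pirb and Cd80 shrank, to 1.35 for Pirb with siRNA 644 and -0.71 for Cd80 with siRNA 878. Fcgr2b's difference between the siRNAs was lost with only the groups compared (adjusted p = 0.158).

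The number of genes called between the siRNAs, 177, was 687 with DESeq2, 300 on library sizes alone, 5 with only the groups compared, 370 on log2(FPKM + 1) and 323 on log2(FPKM + 0.1). Leaving out 1 library gave 12 to 2073 there, 2344 to 6000 for siRNA 644, 2455 to 4823 for siRNA 878 and 2869 to 5877 for their mean, and the highest of each came without siRNA 878 replicate 2. The cause was not tested. Same-numbered libraries had deviations from their group means correlated at -0.686 to 0.548. Deviations from a mean of 3 libraries depend on each other, so these correlations cannot settle whether the replicate numbers mark a pairing. With the replicate number as a block, 14 genes were called between the siRNAs and Fcgr2b there had an adjusted p of 0.118. Pirb, Cd80 and Msr1 rest on at most 184 counts per library, which limits their precision.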
